A study of Homo sapiens with 4 samples.

Results

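The TGF-beta set held 10 genes, picked by gene name from the FPKM table. They were the ligands TGFB1 and TGFB2, the receptors TGFBR1, TGFBR2 and TGFBR3, the signal transducers SMAD2, SMAD3, SMAD4 and SMAD7, and the matrix gene TGFBI. All 10 were found among the 55764 gene names of the deposited table. FPKM is the number of fragments per kilobase of gene for a fixed number of fragments of the library. RNA came from TE5, an established human oesophageal squamous cell carcinoma line, and was sequenced in bulk. The 2 ETS1 libraries came from cells carrying an ETS1 expression vector with a CMV promoter, and the 2 Control libraries from cells carrying the empty backbone and labelled WT. The treatment protocol describes lentiviral infection of the cells, whereas the design text speaks of transfection and selection. Nothing in the labels says whether the libraries of a group are separate infections or cultures, or whether the cells were a clone. The p-values below therefore measure the spread between these libraries only, which may be technical.

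TGF-beta ligands are secreted in a latent complex and, once released, join the type II receptor TGFBR2 to the type I receptor TGFBR1, a kinase. TGFBR1 phosphorylates the receptor-regulated SMADs, SMAD2 and SMAD3, which pair with the common partner SMAD4 and enter the nucleus to regulate transcription. TGFBR3, or betaglycan, presents ligand to the receptors, and SMAD7 inhibits the pathway as part of a feedback loop. In epithelial cells the pathway is known for growth arrest and for driving epithelial-mesenchymal transition, the subject of the study's title.

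Depth was not listed and was recovered from the FPKM values, at 40356722 and 44119605 reads for Control and 57269982 and 56502877 for ETS1. ETS1 itself had 0.491 and 0.509 FPKM in the Control libraries and 1.84 and 1.87 FPKM in the ETS1 libraries. Libraries of 1 group differed beyond counting noise: the mean chi-square over 15846 genes was 4.0 within Control and 4.02 within ETS1. The squamous markers KRT5, KRT14, TP63 and KRT6A were listed at 0 in both Control libraries, and the 5 squamous markers summed to between 0.0896 and 0.0976 FPKM over the 4 libraries, so the labelled squamous type was not borne out by them. The 5 epithelial markers summed to between 16.1 and 16.9 FPKM, while single markers differed in both directions. KRT8 and CDH1 were higher in both ETS1 libraries (KRT8 3.91 and 3.87 against 6.48 and 6.59 FPKM), and KRT18 and EPCAM were lower (KRT18 10.24 and 10.55 against 8.35 and 8.29 FPKM). Of the fibroblast markers, 7 of 8 were under 1 FPKM in every library, with DCN and THY1 at most at 0.0122 FPKM. The fibroblast sum was 2.20 to 2.36 FPKM in the Control libraries and 3.17 to 3.28 FPKM in the ETS1 libraries, mostly COL1A1. All 5 leukocyte and both endothelial markers found were under 1 FPKM. The part of these differences and of the deeper ETS1 libraries in the results was not tested. In bulk RNA, fewer cells that express a gene and less RNA per cell cannot be told apart.

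Of the set, 3 members passed the test. TGFB1 fell by 21.1% in mean FPKM, while TGFBR1 rose by 29.9% and SMAD4 by 27.2%. Of the 8 members above the filter of a mean of 1 FPKM, limma called 2 higher and 1 lower at an adjusted p under 0.05. Among the 14306 genes tested, 30.7% were called higher, 28.4% lower and 59.1% either way; among the 8 members the shares were 25.0%, 12.5% and 37.5%. The median log2 change of the 8 members was 0.056, against 0.016 over all tested genes. TGFB2 and TGFBI lay under the filter and are described from their reads. Groups did not overlap for 4 of the 8 tested members in the higher direction and for 1 in the lower, whereas among all tested genes 43.1% and 38.9% did not overlap in these directions, 82.0% in all. With 2 libraries against 2, 0.333 is the smallest two-sided p of an exact permutation test, and each call rests on the variance that limma shares across genes.

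**Figure D1:**
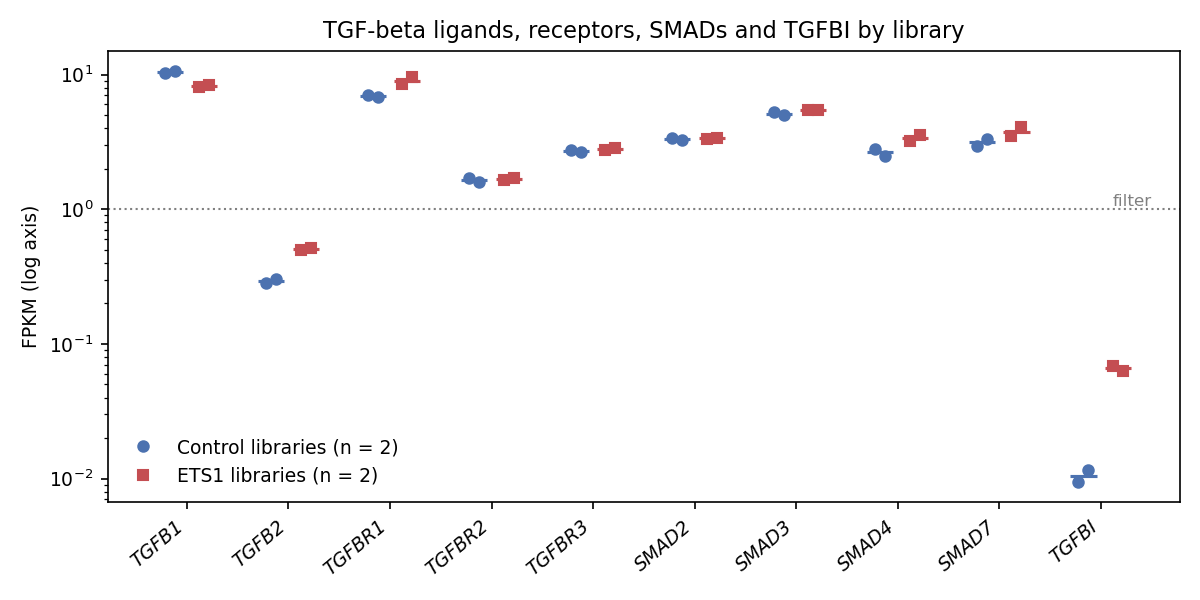
FPKM of the 10 genes in each library on a log axis, with Control libraries as circles, ETS1 libraries as squares, a line at each group's mean and a dotted line at the filter of 1 FPKM. TGFB1 sits lower in both ETS1 libraries, TGFBR1 and SMAD4 sit higher, and TGFB2 and TGFBI lie under the filter in all 4 libraries.

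The sequences upstream of the 3 called genes and of TGFBI, which had the largest FPKM ratio of the set, are shown to let their base composition and their matches to the ETS core be read directly. They come from RefSeq on GRCh38.p14, in which all 10 members were found, and they run 5′ to 3′ on the strand of the gene within the 250 bases before 1 RefSeq start per gene. For a gene with several starts in the table, the one whose first bases were found in most GENCODE 29 transcripts of the gene was taken. The starts of TGFBR1 and SMAD4 so used lie inside the gene bounds of GENCODE 29, downstream of the outermost start. Bases inside an exon of GENCODE 29 were left off, and capitals mark the letters GGAA, or TTCC for the other strand.
TGFB1, chr19:41353923-41354168, minus strand: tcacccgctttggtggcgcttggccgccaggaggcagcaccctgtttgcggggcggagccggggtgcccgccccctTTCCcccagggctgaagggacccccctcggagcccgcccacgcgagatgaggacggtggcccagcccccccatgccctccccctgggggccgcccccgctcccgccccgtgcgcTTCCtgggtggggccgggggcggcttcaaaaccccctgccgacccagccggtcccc
TGFBR1, chr9:99104863-99105088, plus strand: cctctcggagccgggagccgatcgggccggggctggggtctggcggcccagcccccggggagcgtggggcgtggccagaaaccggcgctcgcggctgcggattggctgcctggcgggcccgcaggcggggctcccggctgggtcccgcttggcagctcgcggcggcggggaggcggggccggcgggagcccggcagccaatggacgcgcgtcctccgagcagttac
SMAD4, chr18:51029963-51030099, plus strand: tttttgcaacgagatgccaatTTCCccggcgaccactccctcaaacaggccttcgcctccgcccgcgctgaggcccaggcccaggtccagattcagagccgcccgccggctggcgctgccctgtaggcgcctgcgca
TGFBI, chr5:136028738-136028894, plus strand: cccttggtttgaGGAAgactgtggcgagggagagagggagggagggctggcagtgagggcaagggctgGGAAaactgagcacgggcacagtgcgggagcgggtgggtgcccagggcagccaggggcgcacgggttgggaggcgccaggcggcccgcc
The TGFBR1 stretch has no capitals, while those of TGFB1, SMAD4 and TGFBI have 2, 1 and 2 matches. In the full upstream windows of 250 bases, GGAA on either strand occurred 2 times before TGFB1, 0 times before TGFBR1, 3 times before SMAD4 and 3 times before TGFBI. Over all 8 RefSeq starts of TGFBR1, 5 windows held GGAA, so the 0 holds for the start shown. It occurred in 92.7% of all 35116 RefSeq windows of that length, with a mean of 2.93 matches. The longer ETS sequence CCGGAAG, which contains GGAA, was in 8.52% of all windows. Among the members it was found once, before another of the 8 RefSeq starts of TGFBR1, 228 bases upstream of that start. Its surroundings are shown with the match in capitals.
TGFBR1, chr9:99103813-99103841, plus strand: cttttcatctcCCGGAAGgaagccttcac
The letters CAGAC, which SMAD3 and SMAD4 can bind, were in 38.0% of all windows, counting both strands. Among the windows taken as the main start of each member they occurred 2 times before TGFB2, 1 time before TGFBR1 and 2 times before SMAD7, and 0 times before the other 7 members. Over all RefSeq starts, 4 of 8 windows of TGFBR1, 2 of 5 of SMAD3 and 2 of 3 of SMAD7 held them. A match is a description of the letters and was not tested for binding.

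Of the ligands, TGFB1 was the most abundant member in the Control libraries and the member that fell. TGFB1 (chr19:41301587-41353911 in GENCODE 29, minus strand) had 10.2 and 10.6 FPKM in the Control libraries and 8.05 and 8.39 FPKM in the ETS1 libraries, from 1341, 1515, 1495 and 1537 recovered reads. Both ETS1 libraries lay below both Control libraries. The log2 change of FPKM + 1 was -0.31 (standard error 0.038, limma adjusted p 0.00265). That size exceeds the absolute change of 70.1% of tested genes. TGFB1 kept its direction and its call under all 14 alternatives run, with a log2 change between -0.35 and -0.23. Within 10 Mb of TGFB1, 314 other tested genes had a median change of -0.019. GENCODE 29 places 6.64% of the exonic bases of TGFB1 under exons of HNRNPUL1 on the opposite strand. HNRNPUL1 had 52.2 and 52.5 FPKM in the Control libraries and 62.7 and 63.6 FPKM in the ETS1 libraries. Whether the reads were counted by strand is not given in the sources used here, so reads of the 2 genes in those bases cannot be told apart.

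TGFB2, a second ligand with the same receptors, was scarce and higher in the ETS1 libraries. It had 0.283 and 0.303 FPKM in the Control libraries and 0.497 and 0.517 FPKM in the ETS1 libraries, from 59, 69, 147 and 151 reads. The groups did not overlap. Per read of depth, the pooled ratio was 1.73 with an exact (Clopper-Pearson) 95% interval of 1.40 to 2.14, which covers counting error only. Without the filter limma gave an adjusted p of 0.0455 for a log2 change of 0.22, in a fit that called 19.6% of 35055 genes. With limma's voom on recovered reads the log2 change was 0.78 with an adjusted p of 0.00171, in a fit that called 48.5% of 22229 genes. TGFB1 remained the main ligand of the pair by FPKM, but the TGFB1 to TGFB2 ratio was 36.19 and 34.96 for Control and 16.2 for each ETS1 library. TGFB3, a ligand outside the set that was named after its values were seen, was more abundant than TGFB2. It had 1.59 and 1.46 FPKM in the Control libraries and 1.50 and 1.45 FPKM in the ETS1 libraries. Its log2 change was -0.030 (limma adjusted p 0.690). For TGFB2, GENCODE 29 places 26.6% of the exonic bases under TGFB2-OT1, a non-coding gene on the same strand that is not analysed here.

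Of the receptors, TGFBR1 rose and the other receptors did not pass. TGFBR1 (chr9:99104038-99154192, plus strand), the type I receptor kinase, had 7.09 and 6.83 FPKM in the Control libraries and 8.53 and 9.56 FPKM in the ETS1 libraries, from 1962, 2067, 3350 and 3707 reads. Both ETS1 libraries were above both Control libraries, and the second ETS1 library stood 11.5% of their mean above the first, 4.82 times the counting error. The log2 change was 0.33 (standard error 0.059, limma adjusted p 0.00794). The call held under all 14 alternatives, but the size did not. It was 0.17 (adjusted p 0.0297) once the data were freed of a trend with gene length and GC content, an alternative chosen after seeing the data. The 73 tested genes within 10 Mb of TGFBR1 had a median change of 0.11, and removal of this local median left 0.22 with an adjusted p of 0.0288. The tested genes of chromosome 9 as a whole had a median of -0.10.

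TGFBR2 (chr3:30606502-30694142, plus strand), the type II receptor that binds ligand first, was the scarcest of the receptors. It had 1.719 and 1.597 FPKM in the Control libraries and 1.65 and 1.70 FPKM in the ETS1 libraries, and the groups overlapped. Its log2 change was 0.010 with a 95% interval from -0.14 to 0.16 (limma adjusted p 0.892). TGFBR3 (chr1:91680343-91906335, minus strand), the co-receptor betaglycan, had 2.76 and 2.67 FPKM against 2.75 and 2.85 FPKM, again with overlap. The log2 change of TGFBR3 was 0.033 with a 95% interval from -0.088 to 0.15 (limma adjusted p 0.572). The 76 tested genes within 10 Mb of TGFBR3 had a median of 0.19, above the upper bound of that interval. Both intervals are for a single gene and are not adjusted for the number of genes.

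The ratio of the type I to the type II receptor was higher in both ETS1 libraries. The TGFBR1 to TGFBR2 ratio of FPKM was 4.12 and 4.28 for Control and 5.17 and 5.61 for ETS1. The groups did not overlap, and the exact permutation test gave p = 0.333, two-sided, the smallest possible. TGFBR3 to TGFBR2 was 1.61 and 1.67 against 1.67 and 1.67, with overlap. TGFBR1 was below TGFB1 in the Control libraries, at 0.692 and 0.645 of its FPKM, and above it in the ETS1 libraries, at 1.059 and 1.14. Of the 8 ratios computed between members, 5 did not overlap between groups, and none could reach an exact p under 0.333. The pairs were picked by hand, and of single tested genes 82.0% did not overlap.

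**Figure D2:**
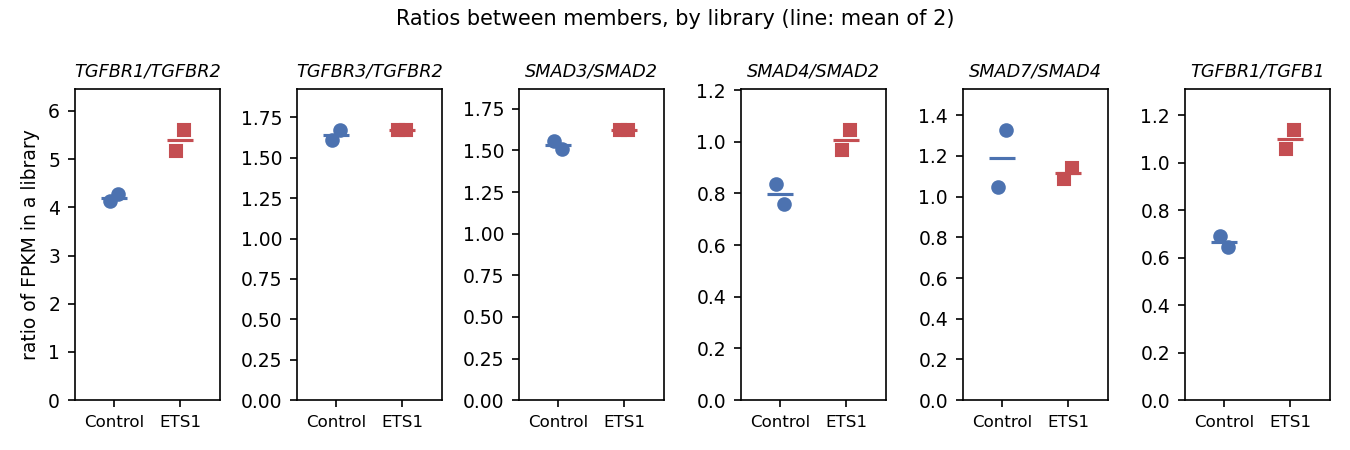
Ratio of FPKM between pairs of members in each library, with Control libraries as circles, ETS1 libraries as squares, a line at the mean of 2 and axes from 0. TGFBR1 to TGFBR2 goes from 4.12 and 4.28 to 5.17 and 5.61, SMAD4 to SMAD2 reaches 0.970 and 1.05, and TGFBR3 to TGFBR2 overlaps between groups.

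Among the SMADs, SMAD4 was called higher and the receptor-regulated pair was not called. SMAD4 (chr18:51028394-51085045, plus strand), the common partner, had 2.83 and 2.50 FPKM in the Control libraries and 3.23 and 3.55 FPKM in the ETS1 libraries, from 1527, 1479, 2479 and 2685 reads. The groups did not overlap, although libraries within each group differed by over 3 times the counting error, at 3.32 times for Control and 3.35 times for ETS1. The log2 change was 0.26 (standard error 0.067, limma adjusted p 0.0251). The call was lost under 6 of 13 alternatives. Leaving out Control 2 gave 0.20 (adjusted p 0.0744), and leaving out ETS1 2 gave 0.21 (adjusted p 0.116). With the length and GC trend removed SMAD4 stood at 0.074 (adjusted p 0.311), and with the local median removed at 0.17 (adjusted p 0.0740). In the authors' deposited table, which calls 51.2% of its 15683 genes with an adjusted p, SMAD4 has a log2 fold change of 0.31 (adjusted p 0.000175).

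SMAD2 (chr18:47808957-47931146, minus strand), a receptor-regulated SMAD, had 3.38 and 3.29 FPKM in the Control libraries and 3.33 and 3.39 FPKM in the ETS1 libraries. The groups overlapped, and the 4 values lay within the narrowest range of the 8 tested members relative to their mean. The log2 change was 0.0077 with a 95% interval from -0.10 to 0.12 (limma adjusted p 0.887). With the length and GC trend removed SMAD2 was called lower, with a log2 change of -0.20 and an adjusted p of 0.0111. Its FPKM rests on an inferred gene length of 13804 bases, 0.38 of the exon union in GENCODE 29, so the authors' gene model differs from that release.

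SMAD3 (chr15:67063763-67195195, plus strand), the other receptor-regulated SMAD, had 5.26 and 4.97 FPKM in the Control libraries and 5.41 and 5.50 FPKM in the ETS1 libraries. Both ETS1 values lay above both Control values by a small margin. The log2 change was 0.079 with a 95% interval from -0.028 to 0.19 (limma adjusted p 0.158). Its neighbours moved the other way: of 119 tested genes within 10 Mb, 76 were called lower and 5 higher, with a median of -0.24. The tested genes of chromosome 15 as a whole had a median of -0.23. With that local median removed SMAD3 was called higher, with a log2 change of 0.33 and an adjusted p of 0.00282. No other alternative called SMAD3. Its change was 0.0027 (adjusted p 0.959) with the length and GC trend removed, 0.019 under quantile normalization and 0.046 without Control 2.

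SMAD7 (chr18:48919853-48952052, minus strand), the inhibitory SMAD, had 2.95 and 3.33 FPKM in the Control libraries and 3.51 and 4.05 FPKM in the ETS1 libraries, from 441, 543, 744 and 847 reads. The groups did not overlap, and the gap between the ETS1 libraries was 14.3% of their mean. The log2 change was 0.21 (standard error 0.078, limma adjusted p 0.0740), short of the threshold. The inferred length of SMAD7, 3699 bases, also differs from its exon union of 5033 bases in GENCODE 29. SMAD7 passed under 4 of 13 alternatives, among them voom on recovered reads (0.26, adjusted p 0.0247) and the fit without ETS1 1 (0.29, adjusted p 0.0494). It was smaller without ETS1 2 (0.12, adjusted p 0.287) and with the local median removed (0.12, adjusted p 0.292). SMAD2, SMAD7 and SMAD4 lie close together on chromosome 18, where tested genes had a median change of 0.14. Within 10 Mb the medians were 0.11 around SMAD2, 0.13 around SMAD7 and 0.13 around SMAD4.

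**Figure D3:**
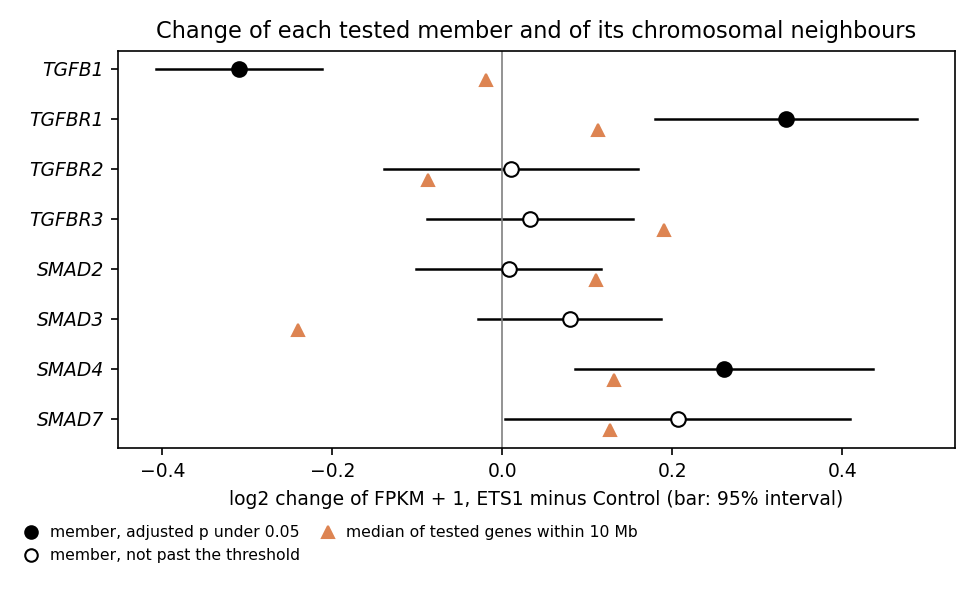
Log2 change of FPKM + 1 for the 8 tested members (circles, filled where the adjusted p is under 0.05, bars for the 95% interval) and the median change of other tested genes within 10 Mb (triangles). TGFB1 lies far below its neighbours, and SMAD3 lies above neighbours with a median of -0.24. The intervals of TGFBR2, SMAD2, SMAD4 and SMAD7 each include their neighbours' median.

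Of the 4 ratios between SMADs, SMAD4 to SMAD2 and SMAD3 to SMAD2 did not overlap between the groups, where 82.0% of single tested genes did not. SMAD4 to SMAD2 was 0.836 and 0.760 for Control and 0.970 and 1.05 for ETS1, without overlap. SMAD3 exceeded SMAD2 by FPKM in every library, at 1.56 and 1.51 times for Control and 1.63 and 1.62 times for ETS1. Their reads were close, at 1936 and 2003 for SMAD3 and 1883 and 2006 for SMAD2 in the Control libraries. In the ETS1 libraries the reads were 2832 and 2839 for SMAD3 and 2635 and 2644 for SMAD2. The excess by FPKM thus rests mostly on the inferred lengths, 9128 bases for SMAD3 and 13804 for SMAD2. SMAD7 to SMAD4 was 1.05 and 1.33 against 1.09 and 1.14, with overlap. SMAD7 to SMAD3 was 0.562 and 0.669 against 0.648 and 0.736, also with overlap.

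TGFBI, which encodes a secreted matrix protein named for its induction by TGF-beta, was nearly silent in the Control libraries and remained the scarcest member. TGFBI (chr5:136028895-136063818, plus strand) had 0.00947 and 0.0116 FPKM in the Control libraries and 0.0690 and 0.0631 FPKM in the ETS1 libraries. These values correspond to 3 and 4 reads against 31 and 28 reads. Both ETS1 libraries were well above both Control libraries, from very few reads. The pooled ratio per read of depth was 6.26 with an exact 95% interval of 2.86 to 16.2 for counting error only. Without the filter the log2 change of FPKM + 1 was 0.077 (limma adjusted p 0.0443), a scale that compresses values this low. With voom on recovered reads it was 2.48 (standard error 0.52, limma adjusted p 0.00101). The inferred length of TGFBI, 7847 bases, was close to its exon union of 7810 bases in GENCODE 29, which the read counts depend on.

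By FPKM the Control order of the set was TGFB1, TGFBR1, SMAD3, SMAD2, SMAD7, TGFBR3, SMAD4, TGFBR2, TGFB2 and TGFBI. SMAD2 and SMAD7 overlapped in range, as did TGFBR3 and SMAD4, so these neighbours were not separated beyond their spread. In the ETS1 libraries TGFBR1 stood first at 9.04 ± 0.733 FPKM and TGFB1 next at 8.22 ± 0.239 FPKM (SD, n = 2 each), without overlap. SMAD7, SMAD4 and SMAD2 followed SMAD3 there with overlapping ranges between each and the next. Every member was of moderate or low abundance. TGFB1 and TGFBR1 stood at percentiles 61.9 and 57.2 of mean FPKM among tested genes, and TGFBR2 stood lowest of the tested members at percentile 13.1.

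The 3 tested genes nearest to TGFBR1 in pattern, by Euclidean distance of mean-centred log2(FPKM + 1) over the 4 libraries, were ZEB1, BIK and MIER1, at distances of 0.0188, 0.0193 and 0.0206. ZEB1, an EMT transcription factor, had 2.85 and 2.75 FPKM in the Control libraries and 3.51 and 3.96 FPKM in the ETS1 libraries. Over 4 libraries this likeness is a description only.

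The rest of the pathway was counted over 132 further genes in 7 roles, all found in the table. Of the 105 that were tested, 60 were called higher and 15 lower, which is 57.1% and 14.3%, with a median log2 change of 0.20. Over all tested genes the shares were 30.7% and 28.4% and the median was 0.016. The lists were chosen with earlier results of these libraries known, so the counts are a description and not independent evidence of a direction. Of the 105, 5 had 1 group's mean under the filter, and 4 of these were called higher and 1 lower. At a mean of at least 5 FPKM 59 pathway genes were tested and 36 were called higher, which is 61.0%, against 31.2% of all genes tested there. Without ETS1 1 the number called lower was 9 of 105, or 8.57%, against 21.5% of all genes in that fit.

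Genes of ligand latency and activation divided, with 5 higher and 4 lower of 11 tested (45.5% and 36.4%, against 30.7% and 28.4% of all tested genes). ITGAV, an integrin subunit that takes part in releasing latent TGF-beta, rose by 0.59, and LTBP3, a latent TGF-beta binding protein, by 0.41. MMP14, a membrane protease, fell by 0.50 on the log2 scale (-0.93 with voom), with an ETS1 mean under the filter. INHA, an inhibin subunit, rose by 0.33 (limma adjusted p 0.0392) but lost the call under 7 of 13 alternatives, among them the fits without Control 1 (0.20, adjusted p 0.0740), ETS1 1 (0.38, adjusted p 0.0738) or ETS1 2 (0.28, adjusted p 0.141). INHA was 0.46 without Control 2 and 0.21 (adjusted p 0.0977) with the local median removed. INHBA, which encodes the subunit of activin A and was named after its values were seen, was under the filter with 0.0918 and 0.0750 FPKM in the Control libraries and 0.464 and 0.485 FPKM in the ETS1 libraries.

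Of the other receptors and co-receptors, 6 of 10 tested were called higher and 0 lower (60.0% and 0.0%, against 30.7% and 28.4% of all tested genes). CD109, a membrane protein that binds TGF-beta, rose by 0.46, the receptor BMPR2 by 0.32 and TGFBRAP1, which associates with the receptors, by 0.24. With the length and GC trend removed BMPR2 was 0.077 (adjusted p 0.159) and CD109 0.27. BMPR1A rose by 0.23 (limma adjusted p 0.0172) and lost the call under 5 of 13 alternatives. It was 0.054 (adjusted p 0.341) with the length and GC trend removed and 0.13 (adjusted p 0.0705) with the local median removed. Without Control 2 it was 0.22 (adjusted p 0.0566), and without ETS1 2 it was 0.18 (adjusted p 0.0926). Of the other SMADs, SMAD5 and SMAD1 of the BMP branch were called higher, with log2 changes of 0.49 and 0.26. SMAD5 had 7.84 and 7.31 FPKM in the Control libraries against 10.4 and 11.7 FPKM in the ETS1 libraries. Its log2 change was 0.26 with the length and GC trend removed. SMAD1 lost the call under 3 of 13 alternatives, at 0.12 (adjusted p 0.144) with the length and GC trend removed, 0.13 (adjusted p 0.129) with the local median removed and 0.25 (adjusted p 0.0575) without ETS1 1. SMAD9 (0.15, from 0.054 without ETS1 2 to 0.24 without ETS1 1) and the inhibitory SMAD6 (-0.14) did not pass, and SMAD6 was 0.11 with the local median removed and -0.18 (adjusted p 0.0432) under quantile normalization.

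Of the regulators that bind or modify SMADs and receptors, 12 of 28 tested were higher and 4 lower (42.9% and 14.3%, against 30.7% and 28.4% of all tested genes). SKIL, a nuclear repressor of SMADs, rose by 0.59, the ubiquitin ligase NEDD4L by 0.57 and TRIM33, a regulator of SMAD4, by 0.52. NEDD4L passed the filter only through the ETS1 libraries, with 0.811 and 0.872 FPKM in the Control libraries, and was 1.04 with voom. SKIL lost its call with no filter (adjusted p 0.0586), and with the length and GC trend removed SKIL was 0.28 and TRIM33 0.33. USP11, a deubiquitinase, fell by 0.49 on the log2 scale. Nuclear partners of SMADs had 8 higher and 2 lower of 13 (61.5% and 15.4%, against the same 30.7% and 28.4%), with ATF3 (0.69), NCOR1 (0.57), ATF2 (0.46) and CBFB (0.44) highest. CBFB lost its call with no filter (adjusted p 0.0644), and ATF2 was 0.27 with the length and GC trend removed. Of 11 genes of signalling outside the SMADs, 8 were higher and 2 lower (72.7% and 18.2%, against 30.7% and 28.4%). ROCK1 and SHC1 rose by 0.48 and 0.43, and PARD6A and TAB1 changed by -0.73 and -0.30. ROCK1 was 0.30 with the length and GC trend removed.

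Of the genes listed as TGF-beta targets, 19 of 28 tested were called higher and 3 lower (67.9% and 10.7%, against 30.7% and 28.4% of all tested genes), with a median of 0.35. KLF10, an early TGF-beta response gene, had 6.539 and 6.496 FPKM in the Control libraries against 16.4 and 17.7 FPKM in the ETS1 libraries, and its log2 change was 1.26. SNAI2, an EMT transcription factor, had 4.86 and 4.54 FPKM in the Control libraries against 26.9 and 28.4 FPKM in the ETS1 libraries, a log2 change of 2.33. TNC, a matrix glycoprotein, and SPARC, a matrix-associated protein, changed by 1.70 and 1.51. Both passed the filter only through the ETS1 libraries, with 0.830 and 0.903 FPKM of TNC and 0.312 and 0.258 FPKM of SPARC in the Control libraries. The order of these genes depends on the pseudocount: SPARC was 3.22 with voom on recovered reads and SNAI2 2.56. A further 10 of the target list lay under the filter.

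**Figure D4:**
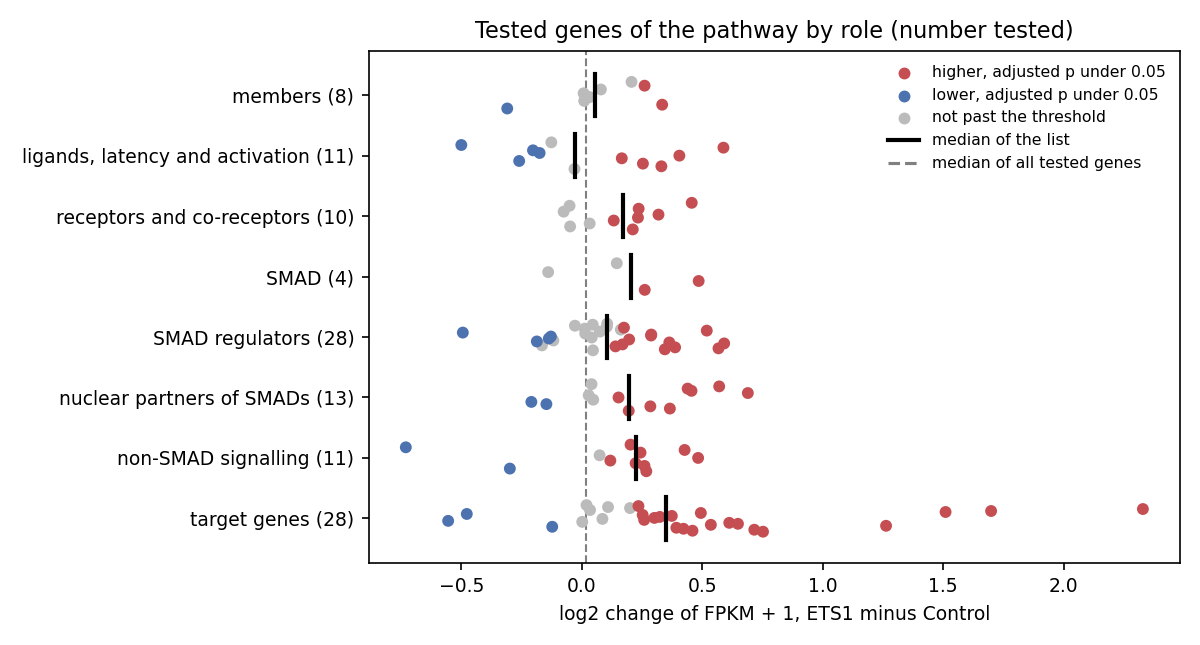
Log2 change of FPKM + 1 for each tested gene by role, coloured by its call, with a bar at the median of the list and a dashed line at the median of all tested genes (0.016). The target genes have a median of 0.35 and reach 2.33, while the members have a median of 0.056.

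The dependence of the members on processing differed between genes. TGFB1 and TGFBR1 kept their calls under each of the 14 alternatives, and TGFBR2 and TGFBR3 were called under none of their 13. SMAD2, SMAD3, SMAD4 and SMAD7 each changed their call under at least 1 alternative.

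**Figure D5:**
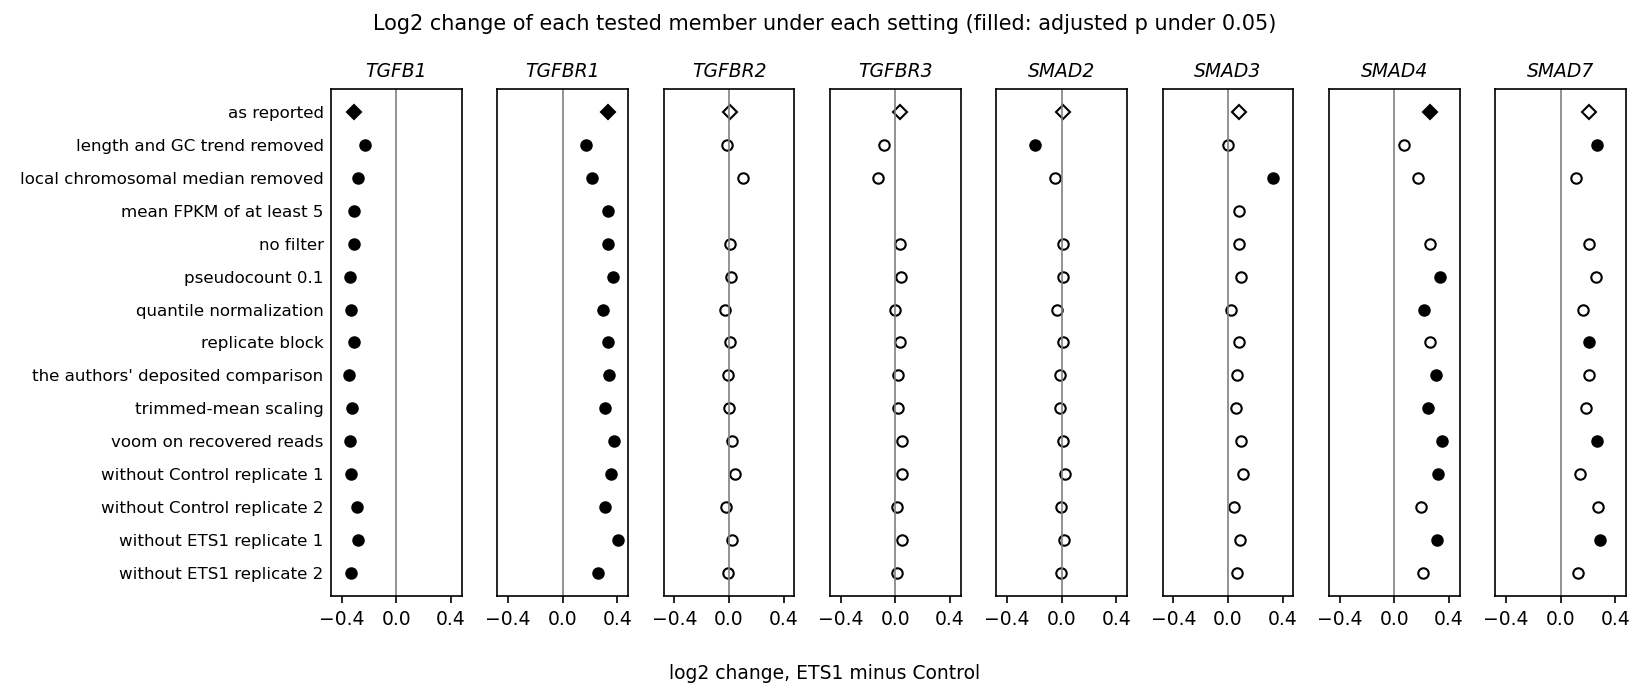
Log2 change of each tested member under each setting, with the reported value as a diamond and points filled where the adjusted p is under 0.05. TGFB1 and TGFBR1 are filled throughout, and SMAD3 is filled with the local chromosomal median removed.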

How the data were processed

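The deposited tables hold FPKM for 2 Control and 2 ETS1 libraries, computed by the authors. HISAT2, HTSeq, DESeq2 and hg38/GRCh38 are named, without versions or roles, per the submitters' processing notes. A second table holds the authors' DESeq2 comparison. It has FPKM columns for each library as well as p-values, per the file headers. Its other columns are a mean normalized count (a signal averaged by the authors) and log2 fold changes with standard errors on the authors' log2 scale. Annotation and use of strand are not given in the sources used here.

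Tests used limma 3.58.1 (R 4.3.3) on log2(FPKM + 1) of 14306 genes whose mean FPKM reached 1, with a group term, an intensity trend (2.84 prior and 2 residual degrees of freedom) and two-sided Benjamini-Hochberg adjustment over those genes at 0.05. Fold changes on this scale understate the change of low genes. Standard intervals are 95%.

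Reads were recovered from the ratios of FPKM between libraries and the mean normalized counts. Of the values of 16652 genes, 99.7% fell within 0.05 of a whole number. In a self-test on 4965 genes, 100.0% were recovered exactly. Other genes, TGFB2 and TGFBI included, took the smallest whole numbers that fit. Intervals on reads cover counting error only.

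On simulated data of 14309 genes, limma recovered 46.9% of genes changed 1.25-fold and 93.8% of those changed 2-fold. With nothing changed there was 1 call. Few genes were changed in the simulation, which made 162 calls, and all genes had the same spread beyond counting noise. The fit of the real data called 59.1% of genes, so these shares are not its recovery rates.

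Positions and exons come from a match of names to GENCODE 29 on GRCh38. The members, the lists and the rule for named genes (all members, up to 4 called genes with the largest change in each role, and all other SMADs) were chosen with earlier results of these data known. The alternatives run and their effect stand in the closing section.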

Additional observations from a re-analysis of the deposited data

How the results depend on the processing

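Depth and the 2 libraries a group limit these results: genes with few reads lie under the filter. On simulated data with few changed genes and the same spread for all, 46.9% of 1.25-fold changes were recovered. That share is not the recovery rate of the real fit. Alternatives were a pseudocount of 0.1, no filter or a mean of at least 5 FPKM, trimmed-mean scaling, quantile normalization, the authors' deposited comparison, voom on recovered reads, removal of the local median, the replicate number as a block, each library left out and, chosen after seeing the data, removal of a length and GC trend (84.1% of tested genes had both values). TGFB1 and TGFBR1 kept direction and call under all 14. The cause of the other changes was not tested, apart from fewer genes tested under the stricter filter.

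At a mean of at least 5 FPKM, 3 members were tested, SMAD4 not among them, and 1 was called higher (31.2% of all 8215 genes tested there). With no filter 1 of the 8 was called higher (10.3% of all 35055 genes), where TGFB2 and TGFBI, outside that count, were called higher too. Members called lower numbered 2 of the 8 with the length and GC trend removed, where 29.8% of all 14306 genes were called lower. Pathway genes called higher numbered 36 of the 59 tested at a mean of at least 5 FPKM (61.0%). Over the fits that left out a library, members called higher ran from 1 to 3, pathway genes called higher from 43 to 56 and pathway genes called lower from 9 to 14, while 19.9% to 27.7% of all genes were called higher and 20.6% to 26.0% lower.

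TGFBR2 turned to -0.013 with the length and GC trend removed, -0.027 under quantile normalization, -0.0055 in the authors' deposited table and -0.0037 under trimmed-mean scaling, with -0.023 to 0.043 over the fits that left out a library, and was 0.10 (adjusted p 0.198) with the local median removed. TGFBR3 turned to -0.080 with the trend removed, -0.12 with the local median removed and -0.0048 under quantile normalization. Over the fits that left out a library TGFBR3 ran from 0.014 to 0.052. SMAD2 turned to -0.20 with the trend removed, -0.049 with the local median removed and -0.037 under quantile normalization. It was -0.013 in the authors' deposited table and -0.0093 under trimmed-mean scaling, with -0.0067 to 0.022 over the fits that left out a library. SMAD6 turned to 0.11 with the local median removed.

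SMAD3 was called with the local median removed (0.33). SMAD4 lost its call with the trend removed (0.074), the local median removed (0.17) and no filter (0.26, adjusted p 0.0975), and ran from 0.20 to 0.32 over the fits that left out a library. SMAD7 passed with the trend removed (0.27, adjusted p 0.0359) and with voom (0.26), and ran from 0.12 to 0.29 over the fits that left out a library.

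The libraries share only a replicate number. Deviations of the libraries numbered 1 had a Pearson r of -0.046 across 14306 genes, which are not independent. With the replicate block SMAD4 lost its call (0.26, adjusted p 0.0542) and SMAD7 passed (0.21, adjusted p 0.0343); the other 6 tested members kept theirs.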
